A study of Homo sapiens with 15 samples.

Results

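The genes described here carry out or control DNA replication and S phase. They were the 49 protein-coding genes whose symbols stood in a given list, out of 58780 named genes of the count table, and no threshold on a measured value chose them, although the list was drawn up with earlier results of these data known. All 49 passed the filter on low counts, with means over the libraries from 2.21 to 139 CPM (counts scaled to the same library total, with TMM factors). They were read in 10 roles, from the MCM2-7 helicase, origin licensing and helicase activation through clamps, polymerases, fragment joining and nucleotide supply to chromatin assembly, fork protection and the E2F factors with cyclins E. RNA had been sequenced from atrial cardiomyocytes made from H7, an established human embryonic stem cell line of wild-type genotype, to study ATRNL1, the gene of attractin-like 1, a relative of attractin in the cell membrane. The 15 libraries fall into 5 groups of 3. Overexpression of ATRNL1 from a lentivirus with its short isoform (ATRNL1 lentivirus) was set against a control lentivirus, and siRNA-1 and siRNA-2 against ATRNL1 were set against a scramble siRNA. Per the labels, cells transduced for overexpression were selected with puromycin, and all groups came from spheroids dissociated at the same day of differentiation. The days of treatment and harvest were not found in the labels.

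Before S phase, the origin recognition complex with CDC6 and CDT1 loads the ring of MCM2 to MCM7 onto DNA, where it waits in an inactive form. At S phase CDC45 and the GINS complex join the ring to make the active helicase, primase and the DNA polymerases copy the opened strands, and PCNA, loaded by replication factor C, holds the polymerases on the template. Most of these genes are transcribed in late G1 by E2F factors once the retinoblastoma proteins are phosphorylated, with cyclin E as one of the targets and drivers. Fetal heart muscle cells divide, adult ones largely leave the cell cycle, and cardiomyocytes made from stem cells can still enter S phase.

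Total counts ran from 37078568 to 108663135 per library. The libraries held cardiomyocyte RNA in every group: TNNT2, cardiac troponin T, averaged 3791 ± 126 CPM with the ATRNL1 lentivirus, 3787 ± 127 CPM with the control lentivirus, 3239 ± 209 CPM with siRNA-1, 3009 ± 120.2 CPM with siRNA-2 and 2999 ± 471 CPM with scramble (SD, n = 3 each). Other cardiomyocyte genes differed between groups: NKX2-5, a cardiac transcription factor, averaged 46.8 ± 5.32 CPM with the ATRNL1 lentivirus, 38.9 ± 1.46 with the control lentivirus, 147 ± 4.06 with siRNA-1, 132 ± 6.14 with siRNA-2 and 136 ± 10.3 with scramble. Of the atrial markers, NR2F2 and KCNJ3 were present, whereas SLN stayed at or below 0.242 CPM and NR2F1 at or below 0.980 CPM in all 15 libraries. PECAM1, CDH5 and VWF of endothelium and NANOG and ZFP42 of pluripotent cells were near 0. Others of these lists passed the filter on low counts: KDR, TEK and NPR3 of endothelium, and POU5F1, LIN28A and TDGF1 of pluripotent cells. NPR3 was lower with siRNA-1 and siRNA-2 than with scramble in edgeR's test (log2 fold changes -0.67 and -0.62), and KDR did not pass it with either. Of 9 fibroblast markers DCN, THY1 and FAP were near 0, while COL1A1, COL1A2, COL3A1, PDGFRA and POSTN were present, with COL3A1 averaging 52.3 ± 6.71 CPM with the ATRNL1 lentivirus, 45.3 ± 0.859 with the control lentivirus, 69.5 ± 4.85 with siRNA-1, 80.3 ± 2.04 with siRNA-2 and 82.5 ± 10.8 with scramble. Of other lists, WT1, TBX18, ALDH1A2 and BNC1 of epicardium passed the filter. So did AFP, ALB, APOA1 and TTR of endoderm and liver, and STMN2, ELAVL3, PAX6 and SOX10 of neural cells. WT1 (log2 fold change 0.57) and PAX6 (0.91) rose with siRNA-1 against scramble, while AFP, ALB, TBX18 and STMN2 did not pass the test. With siRNA-2, BNC1 (1.64) and APOA1 (0.78) rose and the others did not pass. Their part in the results below was not tested. ATRNL1 averaged 764 ± 149 CPM with its lentivirus against 28.0 ± 1.11 CPM with the control lentivirus (log2 fold change 4.77, SE 0.12, adjusted p = 1.28e-19 by edgeR's quasi-likelihood test, adjusted as Benjamini and Hochberg, as throughout), a value that counts vector and cellular reads together. It averaged 9.16 ± 0.986 CPM under siRNA-1 and 4.99 ± 0.406 CPM with siRNA-2, against 15.3 ± 1.52 CPM with scramble. The column names give each library's group but not which labelled sample it was, and no label tells whether the 3 libraries of a group were grown apart. The p-values therefore measure only how these samples spread, which may be technical.

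The scramble libraries stood apart from each other in these genes. Their mean log2(CPM + 0.1) over the 49 genes was 3.58, 3.25 and 3.46 in libraries 1 to 3, while the 3 siRNA-1 libraries were at 3.64, 3.71 and 3.72 and the 3 siRNA-2 libraries at 3.71, 3.71 and 3.69. Scramble library 1 was the highest of its group for 35 genes, library 2 the lowest for 38, and library 3 lay between them for 38. The same held across the table: scramble library 3 lay between the other 2 for 74.4% of 7145 genes above 20 CPM, with a median squared distance from their midpoint of 1.04 counting variances, against 9.02 for library 1 and 10.1 for library 2. In other groups 1 library also lay between the rest for most genes, with 58.3% for control lentivirus library 2, 52.9% for ATRNL1 lentivirus library 3 and 52.4% for siRNA-1 library 2. The distance was 1.38 counting variances for that control lentivirus library and 1.045 for that siRNA-1 library. For ATRNL1 lentivirus libraries 1 to 3 it was 34.4, 56.7 and 14.1, larger than in any other group, scramble included. In the control lentivirus, ATRNL1 lentivirus, siRNA-1 and siRNA-2 groups, 1 sample title joins the numbers of its group's other titles. Titles and pattern did not always go together. Scramble has no such title, and in siRNA-2 no library lay between the others for most genes, with 40.1% at most, for library 2. Whether such a library pools the others was not tested. Counts are therefore given below also with the in-between library of every group left out.

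**Figure D1:**
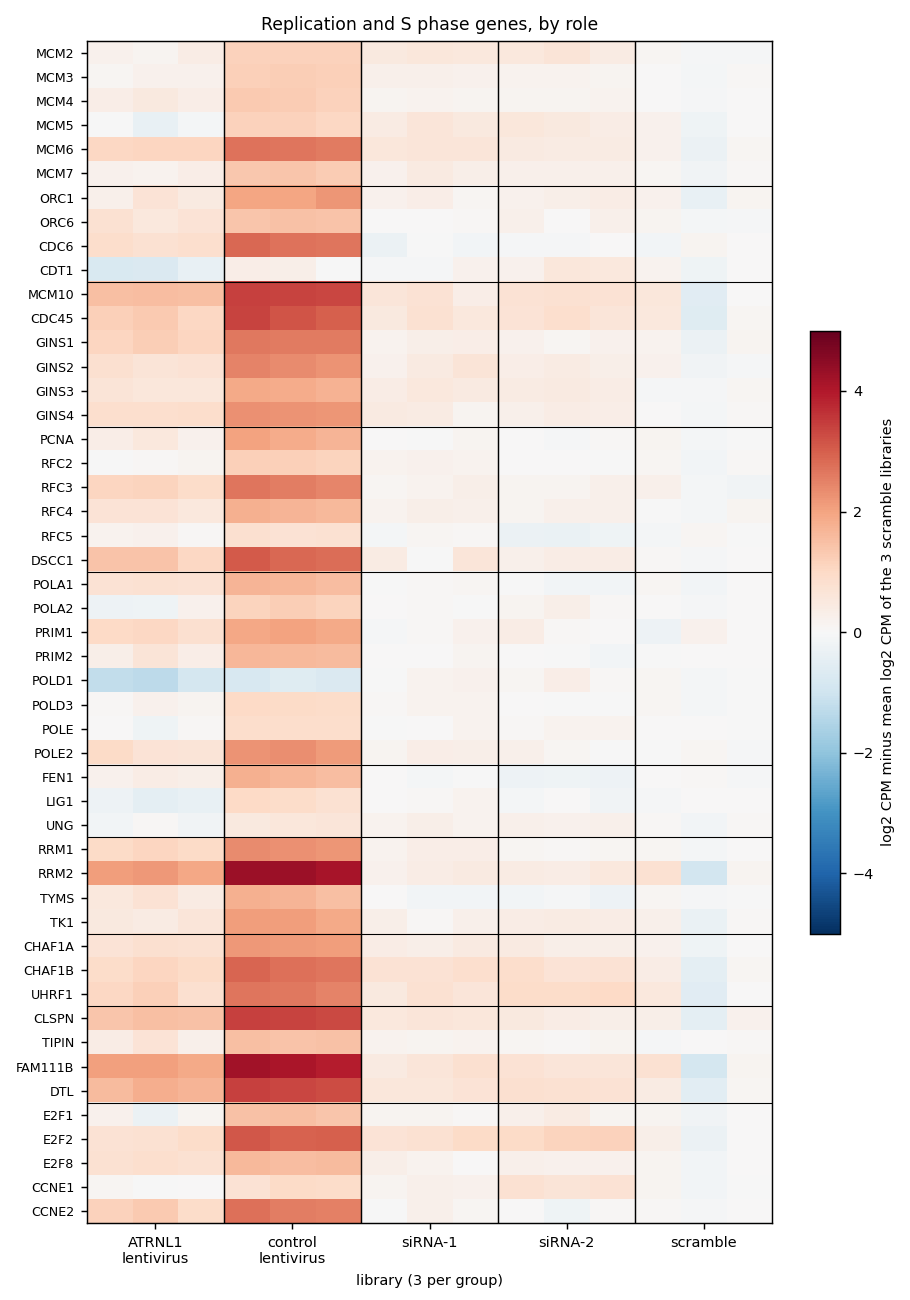
Log2 CPM of the 49 genes in each of the 15 libraries, as colour, relative to the gene's mean over the 3 scramble libraries. Genes run down by role and groups run across. The control lentivirus columns are high for nearly all genes, with RRM2 and FAM111B the furthest, the ATRNL1 lentivirus columns are less high, and the siRNA columns lie closest to scramble.

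Levels differed widely between the genes. Per kilobase of exon, PCNA, the sliding clamp (chromosome 20, 5114953 to 5126626, minus strand, GRCh38), was among the highest, at 57.7 CPM with the ATRNL1 lentivirus, 162 with the control lentivirus, 46.1 with siRNA-1, 44.8 with siRNA-2 and 44.7 with scramble. POLA2, the B subunit of DNA polymerase alpha, had 0.288, 0.682, 0.310, 0.341 and 0.305 CPM per kilobase in that order of groups. The control lentivirus had the highest group mean for 47 of the 49 genes, all but CDT1 and POLD1, and scramble had the lowest for 34. All ATRNL1 lentivirus libraries lay above all scramble libraries and below all control lentivirus libraries for 37 genes, and overlapped scramble for 9. They lay below all scramble libraries for CDT1, POLD1 and LIG1. These orders are descriptions without a test, because the ATRNL1 lentivirus and scramble groups differ in both delivery and ATRNL1.

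RefSeq promoters (GRCh38.p14, 250 bases before to 50 after the start) were at hand for 41 of the 49 genes. They were searched on both strands for the E2F letters TTTCCCGC, TTTGGCGC, TTTCGCGC and TTTGCCGC, with overlapping matches counted as 1 site. Such letters stood in 22 of the 41 promoters (53.7%), against 3.33% of all 27305 promoters and 4.96% of 12131 promoters of protein-coding genes tested here. Of 26 promoters of mitosis and G2 genes 3 held them (11.5%). Related lists also held them above the share of all promoters: 28.6% of replication stress and homologous recombination promoters, 19.2% of G1 to S regulators and 12.1% of other fork and origin genes. Nucleotide supply and unfolded protein response promoters held them in 4.76% each. The E2F letters were thus most frequent in the 49 genes but not confined to them. The letters TTTGAA, the cell cycle homology region found at many G2 and M genes, stood in 1 of the 41 promoters (2.44%). They stood in 21 of the 26 mitosis promoters (80.8%), against 15.4% of all promoters and 10.5% of the tested protein-coding ones. CCAAT stood in 24 of the 41 (58.5%), against 35.7% of all promoters. It stood in 57.6% of promoters of other replication fork and origin genes, 80.8% of mitosis and G2 and 81.0% of unfolded protein response promoters. The shares were 52.4% for replication stress and homologous recombination, 33.3% for nucleotide supply and 26.9% for G1 to S regulators. CCAAT was thus not particular to the replication genes. Shown are 5 promoters of genes called in 5 or more of the 6 comparisons. MCM6 and MCM7 had the most sites, MCM2 had 1 site read on both strands, and CLSPN and DTL were taken in alphabetical order from 6 genes tied at 1 match, with E2F2, GINS2, GINS3 and UHRF1 not shown. The promoters shown belong to genes of helicase loading, the fork checkpoint and the removal of CDT1, but these roles played no part in the choice. Each runs 5′ to 3′ along its gene, with the matched letters in capitals, and a match describes the sequence only.

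MCM2, chr3:127598161-127598460, plus strand: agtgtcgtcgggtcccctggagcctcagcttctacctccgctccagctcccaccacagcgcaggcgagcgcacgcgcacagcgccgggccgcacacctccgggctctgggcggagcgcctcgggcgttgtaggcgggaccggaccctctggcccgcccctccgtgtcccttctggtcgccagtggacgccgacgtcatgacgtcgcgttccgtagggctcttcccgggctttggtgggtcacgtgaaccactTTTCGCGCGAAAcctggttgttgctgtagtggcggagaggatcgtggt

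MCM6, chr2:135876394-135876693, minus strand: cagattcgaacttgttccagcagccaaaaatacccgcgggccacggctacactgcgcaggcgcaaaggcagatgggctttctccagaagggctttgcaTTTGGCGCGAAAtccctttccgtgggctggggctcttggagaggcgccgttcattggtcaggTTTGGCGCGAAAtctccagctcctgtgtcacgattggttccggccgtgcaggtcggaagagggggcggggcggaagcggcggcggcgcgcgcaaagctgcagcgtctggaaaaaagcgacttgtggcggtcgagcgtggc

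MCM7, chr7:100101348-100101647, minus strand: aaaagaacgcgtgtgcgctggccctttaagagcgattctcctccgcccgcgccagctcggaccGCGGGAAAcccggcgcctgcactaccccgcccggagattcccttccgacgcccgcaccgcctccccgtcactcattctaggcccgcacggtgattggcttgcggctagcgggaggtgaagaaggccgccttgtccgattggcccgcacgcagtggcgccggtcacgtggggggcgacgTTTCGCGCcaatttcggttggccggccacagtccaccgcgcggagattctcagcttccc

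CLSPN, chr1:35769929-35770228, minus strand: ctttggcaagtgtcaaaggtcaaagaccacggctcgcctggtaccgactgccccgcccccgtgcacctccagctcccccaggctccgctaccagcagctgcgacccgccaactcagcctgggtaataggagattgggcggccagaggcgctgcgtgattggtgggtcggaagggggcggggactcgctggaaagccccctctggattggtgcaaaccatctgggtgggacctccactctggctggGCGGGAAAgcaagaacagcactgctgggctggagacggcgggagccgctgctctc

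DTL, chr1:212035498-212035797, plus strand: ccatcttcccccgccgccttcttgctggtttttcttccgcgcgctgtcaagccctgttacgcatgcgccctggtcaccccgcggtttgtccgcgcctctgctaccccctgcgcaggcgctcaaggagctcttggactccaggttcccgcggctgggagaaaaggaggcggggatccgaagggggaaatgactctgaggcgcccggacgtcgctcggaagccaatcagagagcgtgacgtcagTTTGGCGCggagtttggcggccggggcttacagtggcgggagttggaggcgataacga

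MCM6 held 2 sites, 152 and 86 bases before its start, each read by overlapping letters on both strands, and MCM7 held 2, 187 and 9 bases before its start. The single sites of CLSPN and DTL lay 5 and 8 bases before the start, and that of MCM2 lay 2 bases after it. No match in a promoter says only that these letters are not in the window. RRM2 and FAM111B, which moved far in the lentiviral comparisons below, are not among the matches: the RRM2 window held none of the 4 letter sets, and FAM111B had no promoter in the table.

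The comparison of the ATRNL1 lentivirus with the control lentivirus asked how transduced cells with more of the short ATRNL1 isoform differed from transduced controls. Every one of the 49 replication genes fell, and 0 rose, where 18.0% of all 24659 genes tested fell and 19.1% rose. At an unadjusted p under 0.05 the count of higher genes was also 0, and DESeq2 and limma voom also called 0 higher. Their median log2 fold change was -1.28, from -2.22 for E2F2 to -0.41 for POLD1, while the median over all genes tested was 0.00. The ATRNL1 lentivirus libraries lay below all control lentivirus libraries for 49 of 49, against 21.5% of all genes tested. Mean log2(CPM + 0.1) over the genes was 4.02, 4.05 and 4.01 with the ATRNL1 lentivirus and 5.38, 5.34 and 5.27 with the control lentivirus. In bulk RNA, fewer cells in S phase and less RNA of these genes per cell cannot be told apart.

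**Figure D2:**
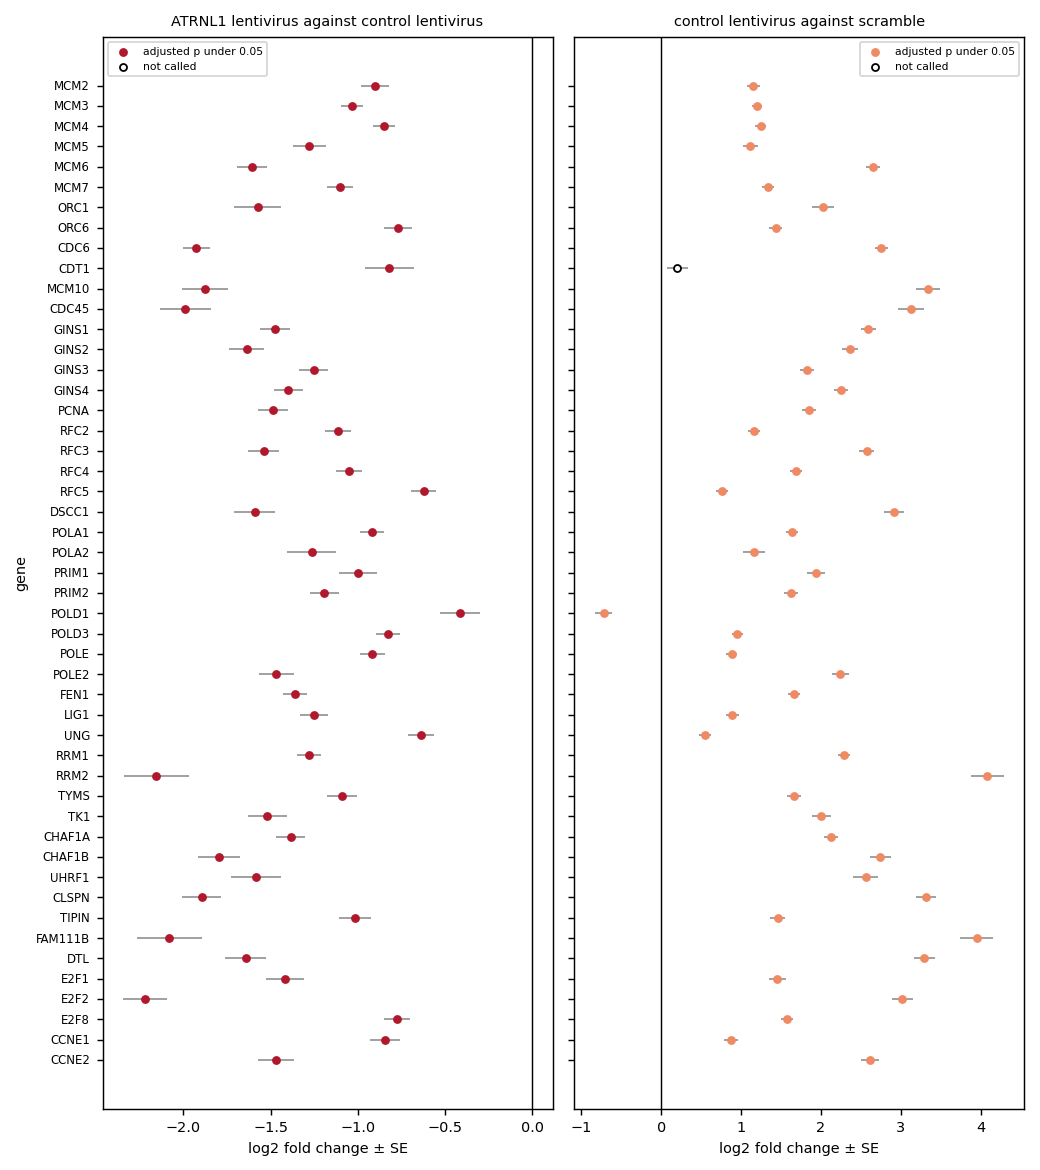
Log2 fold change of each of the 49 genes with its standard error, in the ATRNL1 lentivirus against the control lentivirus (left) and the control lentivirus against scramble (right). Filled points passed an adjusted p under 0.05. All points on the left lie below 0, and on the right all but POLD1 lie above 0, with CDT1 not called.

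All 6 subunits of the MCM2-7 helicase fell, with log2 fold changes from -1.61 to -0.85. MCM6 (chromosome 2, 135839626 to 135876426, minus strand), whose promoter is shown above, had 61.5, 62.8 and 62.6 CPM with the ATRNL1 lentivirus, against 197, 191 and 182 CPM with the control lentivirus (log2 fold change -1.61, SE 0.09, adjusted p = 2.06e-13). MCM2 had 14.0, 13.5 and 15.8 CPM with the ATRNL1 lentivirus, against 27.0, 26.9 and 26.9 CPM with the control lentivirus (log2 fold change -0.90, SE 0.08, adjusted p = 1.41e-09). The groups lay far apart for both, and the fall of MCM6 was the larger. MCM3 had 90.2, 100.1 and 97.8 CPM with the ATRNL1 lentivirus, against 196, 201 and 193 CPM with the control lentivirus (log2 fold change -1.03, SE 0.06, adjusted p = 1.89e-12). MCM4 had 127, 142 and 127 CPM with the ATRNL1 lentivirus, against 249.5, 241 and 225 CPM with the control lentivirus (log2 fold change -0.85, SE 0.06, adjusted p = 8.8e-11). Neither subunit overlapped between the groups. MCM5 had 14.5, 11.6 and 14.0 CPM with the ATRNL1 lentivirus, against 33.5, 33.0 and 30.8 CPM with the control lentivirus (log2 fold change -1.28, SE 0.10, adjusted p = 8.65e-11). MCM7 had 42.1, 40.6 and 46.3 CPM with the ATRNL1 lentivirus, against 92.9, 95.9 and 88.1 CPM with the control lentivirus (log2 fold change -1.10, SE 0.08, adjusted p = 1.63e-11). The spread within either group was small beside the gap for each subunit.

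**Figure D3:**
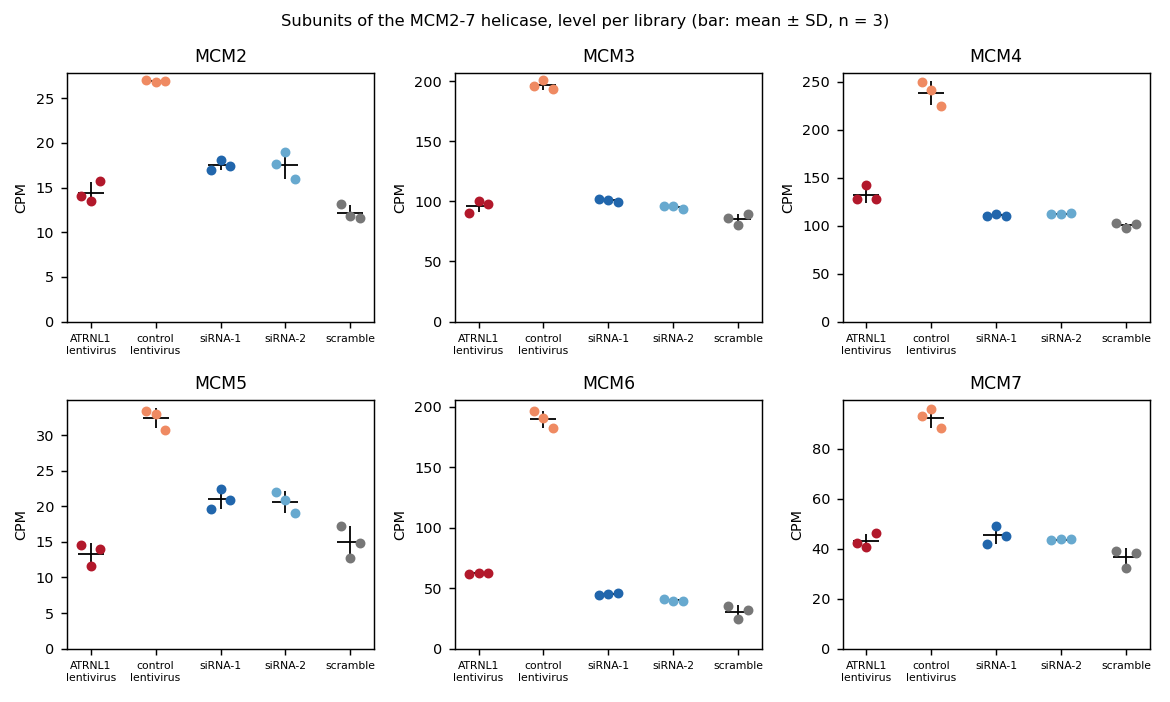
CPM of MCM2 to MCM7 in every library (points), with mean and SD (bars, n = 3 per group). For each subunit the control lentivirus libraries are the highest. For MCM6 they reach 182 to 197 CPM, against 24.3 to 34.9 CPM with scramble.

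The 4 genes that mark and license origins all fell. CDC6, the ATPase that helps load MCM2 to MCM7, had 27.9, 26.2 and 27.5 CPM with the ATRNL1 lentivirus, against 112, 101 and 97.8 CPM with the control lentivirus (log2 fold change -1.93, SE 0.08, adjusted p = 1.14e-15). Its partner CDT1, which is degraded once S phase begins, had 2.60, 2.69 and 3.44 CPM against 5.49, 5.35 and 4.32 CPM (log2 fold change -0.82, SE 0.14, adjusted p = 3.73e-05). The groups did not overlap for either gene, but CDT1 was low everywhere, and the fall of CDC6 was the larger. The origin recognition subunits ORC1 and ORC6 fell by 1.57 and 0.77. All 6 genes of helicase activation fell, with a median of -1.56. CDC45, which joins the ring to make it active, had 4.65, 4.93 and 4.12 CPM with the ATRNL1 lentivirus, against 20.7, 17.8 and 16.0 CPM with the control lentivirus (log2 fold change -1.99, SE 0.15, adjusted p = 5.92e-11). MCM10, which acts when the helicase is switched on, had 12.8, 13.3 and 13.0 CPM against 49.3, 48.0 and 46.2 CPM (log2 fold change -1.88, SE 0.13, adjusted p = 2.92e-11). The 4 GINS genes stayed together, at -1.47 for GINS1, -1.64 for GINS2, -1.25 for GINS3 and -1.40 for GINS4.

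At the fork itself falls were of middle size. PCNA had 82.0, 95.8 and 76.9 CPM with the ATRNL1 lentivirus, against 263, 236 and 215 CPM with the control lentivirus (log2 fold change -1.49, SE 0.09, adjusted p = 9.24e-13). Of the clamp loader subunits, RFC3 fell by 1.54, RFC2 by 1.11, RFC4 by 1.05 and RFC5 by only 0.62, and DSCC1, of the loader that acts in sister chromatid cohesion, fell by 1.59. The 8 polymerase and primase genes fell with a median of -0.96. POLE2, a subunit of polymerase epsilon, had the largest fall among them (-1.47, SE 0.10), and POLD1, the catalytic subunit of polymerase delta, the smallest. POLD1 (chromosome 19, 50384204 to 50418016, plus strand) had 4.04, 3.77 and 5.08 CPM with the ATRNL1 lentivirus, against 5.31, 6.07 and 5.60 CPM with the control lentivirus (log2 fold change -0.41, SE 0.12, adjusted p = 0.00592). Its groups came close without touching, and without control lentivirus library 2 its call ended, which left 48 genes lower. FEN1, which trims Okazaki fragments, and LIG1, which seals them, fell by 1.36 and 1.25, and UNG, which removes uracil from DNA, by 0.64.

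RRM2, the S phase subunit of ribonucleotide reductase, fell among the most. It had 36.9, 38.5 and 33.0 CPM with the ATRNL1 lentivirus, against 169, 166 and 149 CPM with the control lentivirus (log2 fold change -2.16, SE 0.19, adjusted p = 9.41e-10). Its partner RRM1, the large subunit, fell by 1.28, and TK1, thymidine kinase, by 1.52. TYMS, thymidylate synthase, had 26.8, 30.7 and 24.3 CPM against 63.2, 59.1 and 52.0 CPM (log2 fold change -1.09, SE 0.09, adjusted p = 1.94e-10). Exons of other genes overlap 46.6% of the exon length of TYMS and 20.2% of that of RRM2. The shares were 23.6% for MCM2, 23.6% for GINS4, 35.1% for POLA2, 21.6% for PRIM1 and 21.0% for TIPIN. Whether the counting used strand is not stated, so reads of such exons cannot be told apart. Behind the fork, CHAF1A and CHAF1B of the histone chaperone CAF-1 fell by 1.38 and 1.79. UHRF1, which brings the maintenance methyltransferase to newly copied DNA, had 7.34, 8.27 and 6.33 CPM with the ATRNL1 lentivirus, against 23.3, 22.3 and 20.3 CPM with the control lentivirus (log2 fold change -1.58, SE 0.14, adjusted p = 1.87e-09).

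The 4 fork protection and checkpoint genes had the lowest median of the 10 roles, -1.77. FAM111B, which encodes a protease with a trypsin-like domain, had 39.8, 40.0 and 36.0 CPM with the ATRNL1 lentivirus, against 178, 165 and 147 CPM with the control lentivirus (log2 fold change -2.08, SE 0.19, adjusted p = 1.75e-09). CLSPN, the checkpoint mediator claspin, had 26.4, 28.6 and 27.6 CPM against 106, 103 and 98.4 CPM (log2 fold change -1.90, SE 0.11, adjusted p = 9.84e-13). DTL, which targets CDT1 for degradation in S phase, had 36.8, 42.9 and 39.3 CPM against 130.1, 123 and 119 CPM (log2 fold change -1.64, SE 0.12, adjusted p = 4.36e-11). Each control lentivirus library held several times the level of each ATRNL1 lentivirus library for FAM111B and CLSPN, and TIPIN, the partner of TIMELESS, moved least of the 4 (-1.01). Among the regulators, E2F2, an activating E2F factor, had 1.99, 2.07 and 2.31 CPM with the ATRNL1 lentivirus, against 10.4, 9.46 and 9.68 CPM with the control lentivirus (log2 fold change -2.22, SE 0.12, adjusted p = 5.2e-13). E2F1, its close relative, had 8.62, 5.99 and 8.20 CPM against 20.4, 21.0 and 19.5 CPM (log2 fold change -1.42, SE 0.11, adjusted p = 1.14e-10). The repressor E2F8 fell by 0.78. Cyclin E1 (CCNE1) had 10.5, 9.65 and 10.1 CPM with the ATRNL1 lentivirus, against 16.4, 19.2 and 18.6 CPM with the control lentivirus (log2 fold change -0.84, SE 0.08, adjusted p = 1.31e-08). Cyclin E2 (CCNE2) had 8.43, 9.30 and 6.99 CPM against 25.5, 21.9 and 21.2 CPM (log2 fold change -1.47, SE 0.10, adjusted p = 2.8e-11). Other genes overlap 37.1% of its exon length.

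Genes outside the list that work beside it moved too. Of 40 other replication fork and origin genes 33 fell and 0 rose, with a median of -0.46: TIMELESS, of the fork protection complex, at -1.49, SE 0.08, the nuclease DNA2 at -1.45, SE 0.11 and the origin-firing kinase CDC7 at -1.39, SE 0.08. RPA1, the large subunit of the single-strand binding protein, was not called at -0.01 (adjusted p = 0.942), although RPA3 fell by 1.00, and both were chosen after their values were seen. Of 26 nucleotide supply genes 18 fell and 2 rose, with DUT, which keeps uracil out of DNA, at -1.25. Of 32 regulators of the G1 to S step 17 fell and 7 rose, with E2F7 at -1.53 and MYC at 1.93 (SE 0.27). Of 24 genes of replication stress and homologous recombination 20 fell and 0 rose, with a median of -1.14 and the helicase BRIP1 at -1.95. All 32 mitosis and G2 genes fell, with a median of -0.94, among them NDC80 of the kinetochore at -1.36 and the spindle motor KIF11 at -1.23. These lists were drawn up with earlier results of these data known.

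Other features moved with the groups. Of 22 unfolded protein response genes 13 rose with the ATRNL1 lentivirus and 0 fell, with DDIT3 at 1.72 (SE 0.19). CDKN1A, the p21 inhibitor of cyclin-dependent kinases, is named after its values were seen and averaged 93.0 ± 10.9 CPM with the ATRNL1 lentivirus and 70.7 ± 3.71 CPM with the control lentivirus (log2 fold change 0.40, SE 0.09, adjusted p = 0.00131). Of 12 cardiomyocyte markers 5 rose and 4 fell, and their sum ran from 45707 to 48134 CPM with the ATRNL1 lentivirus and from 41563 to 45962 CPM with the control lentivirus. The 6 smooth muscle and pericyte markers, of which 1 rose and 1 fell, summed to 748 to 824 CPM with the ATRNL1 lentivirus and 900.5 to 915 CPM with the control lentivirus. The part of these features in the fall of the replication genes was not tested. With the in-between library of every group left out, 49 genes were still lower and 0 higher.

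**Figure D4:**
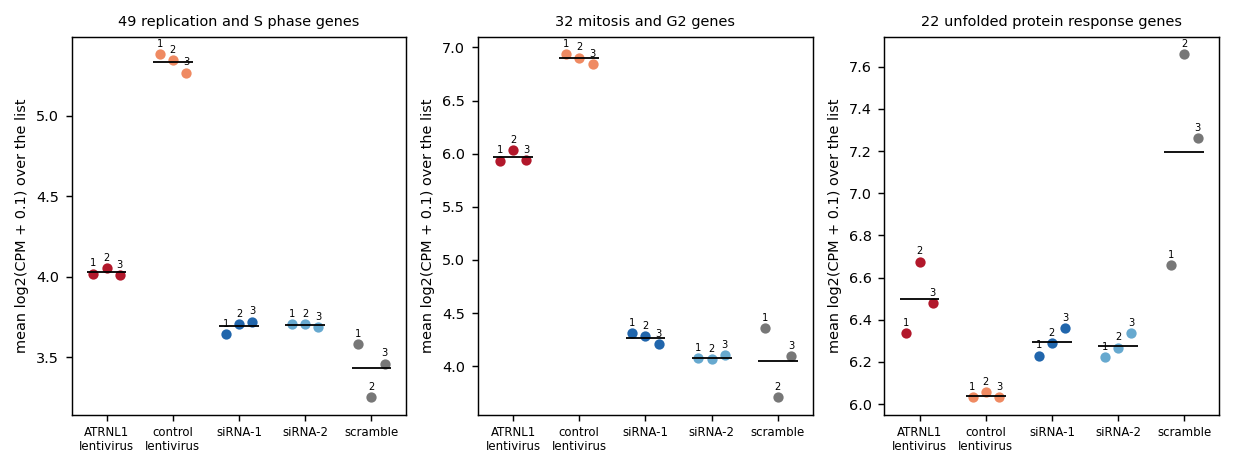
Mean log2(CPM + 0.1) over the 49 replication genes, 32 mitosis and G2 genes and 22 unfolded protein response genes in every library, numbered 1 to 3 in each group (bars are group means). The replication genes sit at 4.02, 4.05 and 4.01 with the ATRNL1 lentivirus and 5.38, 5.34 and 5.27 with the control lentivirus. Scramble libraries 1 and 2 are the most distant pair among the scramble points in all 3 panels.

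The 2 kinds of control, lentivirus and scramble siRNA, were compared to show the level from which each treatment started. With the control lentivirus 47 of the 49 genes rose and 1 fell, where 30.3% of all genes tested rose and 33.2% fell. The median log2 fold change was 1.83, against -0.06 over all genes tested. With scaling by library size only the medians were 1.63 for the 49 genes and -0.26 for all genes tested, and the counts of 47 and 1 were the same. The control lentivirus libraries lay above all scramble libraries for 47 genes and below them for 1, against 32.9% and 35.6% of all genes tested. The groups differ in delivery, the labels describe puromycin selection only for the lentiviral arm, and they give no day of harvest for either, so these cannot be told apart.

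RRM2 rose most, at 169, 166 and 149 CPM with the control lentivirus, against 14.8, 4.53 and 9.61 CPM with scramble (log2 fold change 4.08, SE 0.21, adjusted p = 6.79e-15). FAM111B followed, at 178, 165 and 147 CPM with the control lentivirus, against 16.4, 5.21 and 10.6 CPM with scramble (log2 fold change 3.95, SE 0.21, adjusted p = 1.11e-14). For both genes scramble library 1 was the highest of its group and library 2 the lowest, and every control lentivirus library was above all of them. MCM10 (log2 fold change 3.34, SE 0.15, adjusted p = 3.97e-16), CLSPN (log2 fold change 3.31, SE 0.12, adjusted p = 1.31e-17) and DTL (log2 fold change 3.29, SE 0.13, adjusted p = 5.68e-17) came next. MCM10 had 49.3, 48.0 and 46.2 CPM with the control lentivirus, against 6.67, 3.06 and 4.66 CPM with scramble. CLSPN had 106, 103 and 98.4 CPM with the control lentivirus, against 12.2, 7.09 and 11.5 CPM with scramble. DTL had 130.1, 123 and 119 CPM with the control lentivirus, against 16.4, 8.56 and 13.1 CPM with scramble. In all 3 the lowest scramble library was again library 2.

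The size of the rise differed between roles. CDC6 had 112, 101 and 97.8 CPM with the control lentivirus, against 13.9, 16.7 and 15.3 CPM with scramble (log2 fold change 2.76, SE 0.08, adjusted p = 5.81e-19). MCM6 had 197, 191 and 182 CPM with the control lentivirus, against 34.9, 24.3 and 31.8 CPM with scramble (log2 fold change 2.65, SE 0.09, adjusted p = 4.41e-18). The other 5 subunits of the ring rose less than MCM6, with log2 fold changes from 1.12 to 1.34. CDC45 had 20.7, 17.8 and 16.0 CPM with the control lentivirus, against 2.87, 1.32 and 2.16 CPM with scramble (log2 fold change 3.12, SE 0.16, adjusted p = 8.03e-15). The 4 GINS genes rose by 1.83 to 2.59, ORC1 by 2.02 and ORC6 by 1.43. PCNA had 263, 236 and 215 CPM with the control lentivirus, against 71.4, 61.0 and 65.0 CPM with scramble (log2 fold change 1.85, SE 0.09, adjusted p = 1.77e-15). TYMS had 63.2, 59.1 and 52.0 CPM with the control lentivirus, against 19.6, 17.5 and 18.2 CPM with scramble (log2 fold change 1.66, SE 0.09, adjusted p = 1.57e-14). For PCNA and TYMS the scramble libraries lay close together, with library 2 the lowest. UHRF1 had 23.3, 22.3 and 20.3 CPM with the control lentivirus, against 5.28, 2.46 and 3.65 CPM with scramble (log2 fold change 2.56, SE 0.15, adjusted p = 1.32e-13). E2F1 had 20.4, 21.0 and 19.5 CPM with the control lentivirus, against 8.23, 6.61 and 7.43 CPM with scramble (log2 fold change 1.46, SE 0.11, adjusted p = 1.08e-11). E2F2 had 10.4, 9.46 and 9.68 CPM with the control lentivirus, against 1.48, 0.992 and 1.21 CPM with scramble (3.02, SE 0.13 on the log2 scale). Both activators rose, and E2F2, which was near 1 CPM in scramble, rose more. CCNE2 had 25.5, 21.9 and 21.2 CPM with the control lentivirus, against 3.87, 3.56 and 3.81 CPM with scramble (2.61, SE 0.11 on the log2 scale), a larger rise than that of CCNE1.

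CDT1 and POLD1 departed from the rest. CDT1 had 5.49, 5.35 and 4.32 CPM with the control lentivirus, against 4.95, 3.84 and 4.49 CPM with scramble, groups that overlapped and did not pass the test (log2 fold change 0.20, SE 0.14, adjusted p = 0.193). POLD1 fell, with 5.31, 6.07 and 5.60 CPM with the control lentivirus, against 10.1, 8.81 and 9.18 CPM with scramble (log2 fold change -0.72, SE 0.11, adjusted p = 2.83e-06). Of the other polymerase genes, 7 of 7 rose, from 0.88 for POLE to 2.24 for POLE2. LIG1 had 13.5, 11.7 and 12.7 CPM with the ATRNL1 lentivirus and 32.1, 30.4 and 27.7 CPM with the control lentivirus. Its scramble libraries were at 15.7, 16.7 and 16.4 CPM. It rose by 0.89 and CCNE1 by 0.87, RFC5 by 0.76 and UNG by 0.55. Of the companion lists, 32 of 32 mitosis and G2 genes rose with a median of 2.90, with NDC80 at 3.78. Of the 40 other fork and origin genes 32 rose and 5 fell. CDKN1A averaged 70.7 ± 3.71 CPM with the control lentivirus and 403 ± 47.2 CPM with scramble (log2 fold change -2.51, SE 0.10, adjusted p = 3.86e-17). In the same comparison 19 of 22 unfolded protein response genes fell. Of 12 cardiomyocyte markers 5 rose and 4 fell, with NKX2-5 at -1.80, MYH6 at -1.05, TNNI1 at -0.71 and MYL4 at 1.05, and they summed to 41563 to 45962 CPM with the control lentivirus and 38238 to 48673 CPM with scramble. The 9 fibroblast markers, of which 2 rose and 4 fell, summed to 119 to 124 CPM with the control lentivirus and 161 to 228 CPM with scramble. The 6 smooth muscle and pericyte markers, of which 4 rose and 2 fell, summed to 900.5 to 915 CPM with the control lentivirus and 315 to 469 CPM with scramble. The part of these features in the rise of the replication genes was not tested. Without any 1 scramble library, or with any 1 as the sole control, 47 genes rose and 1 fell.

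Each siRNA was compared with scramble to show how cells with less ATRNL1 differed from these scramble libraries. With siRNA-1, 17 of the 49 genes rose and 0 fell, where 5.85% of all genes tested rose and 3.76% fell. At an unadjusted p under 0.05, 27 were higher and 0 lower, and DESeq2 and limma voom also called 0 lower. The median log2 fold change was 0.20, against -0.01 over all genes tested, with a range from -0.15 for CDC6 to 0.80 for E2F2. The siRNA-1 libraries lay above all scramble libraries for 21 genes and below for 0, against 14.7% and 14.1% of all genes tested. The genes that rose were 5 of 6 MCM2-7 subunits, 4 of 6 of helicase activation, all 3 of chromatin behind the fork, CLSPN and DTL, and of the other roles RFC4, RRM1 and E2F2. None of the 4 licensing genes, the 8 polymerase and primase genes or the 3 genes of fragment joining and base repair passed the test.

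E2F2 had 1.94, 2.07 and 2.32 CPM with siRNA-1, against 1.48, 0.992 and 1.21 CPM with scramble (log2 fold change 0.80, SE 0.15, adjusted p = 0.000701). CHAF1B had 5.63, 5.53 and 5.99 CPM with siRNA-1, against 4.43, 2.45 and 3.58 CPM with scramble (log2 fold change 0.73, SE 0.14, adjusted p = 0.000739). MCM6 had 44.6, 45.2 and 45.9 CPM with siRNA-1, against 34.9, 24.3 and 31.8 CPM with scramble (log2 fold change 0.58, SE 0.09, adjusted p = 6.39e-05). The siRNA-1 libraries were alike for these 3 genes and above scramble, whose library 1 came closest. UHRF1 had 5.07, 6.15 and 5.53 CPM with siRNA-1, against 5.28, 2.46 and 3.65 CPM with scramble (log2 fold change 0.57, SE 0.16, adjusted p = 0.0226). DTL had 18.4, 18.4 and 19.7 CPM with siRNA-1, against 16.4, 8.56 and 13.1 CPM with scramble (log2 fold change 0.57, SE 0.13, adjusted p = 0.00378). UHRF1 overlapped with scramble library 1, while DTL did not. MCM2 rose by 0.53, MCM5 by 0.49, MCM7 by 0.31 and MCM3 by 0.24, and MCM4 was not called at 0.14 (adjusted p = 0.222). PCNA (0.04), TYMS (-0.08) and E2F1 (0.10) did not pass the test.

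With siRNA-2, 20 of the 49 genes rose and 2 fell, where 9.64% of all genes tested rose and 8.48% fell. The median was 0.23, against 0.00 over all genes tested, and 26 genes had siRNA-2 libraries above all scramble libraries, against 18.7% of all genes tested. E2F2 had 2.37, 2.59 and 2.68 CPM with siRNA-2, against 1.48, 0.992 and 1.21 CPM with scramble (log2 fold change 1.06, SE 0.14, adjusted p = 5.03e-06). UHRF1 had 6.81, 6.83 and 7.27 CPM with siRNA-2, against 5.28, 2.46 and 3.65 CPM with scramble (log2 fold change 0.90, SE 0.16, adjusted p = 0.000146). CCNE1 had 16.7, 15.2 and 16.3 CPM with siRNA-2, against 10.9, 8.94 and 9.80 CPM with scramble (log2 fold change 0.70, SE 0.09, adjusted p = 1.34e-06). None of the 3 overlapped with scramble. CHAF1B had 6.29, 5.43 and 5.53 CPM with siRNA-2, against 4.43, 2.45 and 3.58 CPM with scramble (log2 fold change 0.74, SE 0.13, adjusted p = 0.000234). DTL had 21.1, 20.8 and 20.0 CPM with siRNA-2, against 16.4, 8.56 and 13.1 CPM with scramble (log2 fold change 0.71, SE 0.13, adjusted p = 0.000181). Scramble library 1 was the closest to siRNA-2 for both. MCM2 rose by 0.53, MCM5 by 0.47, MCM6 by 0.40 and MCM7 by 0.26, while MCM3 and MCM4 were not called, at 0.16 and 0.16. CDC45 rose by 0.66, and CDT1 by 0.44 (adjusted p = 0.0209). The 2 genes that fell were RFC5 (-0.29, SE 0.08, adjusted p = 0.00841) and FEN1 (-0.23, SE 0.07, adjusted p = 0.0239).

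The siRNA comparisons share the scramble libraries with each other and with the control lentivirus, so their values are set side by side only. MCM2 averaged 17.5 ± 0.578 CPM under siRNA-1 and 17.5 ± 1.55 CPM with siRNA-2, against 12.2 ± 0.846 CPM with scramble (SD, n = 3 each). Other genes overlap 23.6% of the exon length of MCM2, and their reads cannot be told apart. MCM10 averaged 6.72 ± 0.891 CPM under siRNA-1 and 7.59 ± 0.159 CPM with siRNA-2, against 4.79 ± 1.81 CPM with scramble. CDC6 averaged 13.8 ± 1.18 CPM under siRNA-1 and 14.9 ± 0.443 CPM with siRNA-2, against 15.3 ± 1.41 CPM with scramble, and passed neither test. RRM2 averaged 11.1 ± 0.986 CPM under siRNA-1 and 11.7 ± 0.625 CPM with siRNA-2, against 9.65 ± 5.14 CPM with scramble, and its widest spread was within scramble. PCNA averaged 67.8 ± 4.66 CPM under siRNA-1 and 65.9 ± 3.50 CPM with siRNA-2, against 65.8 ± 5.27 CPM with scramble. CCNE2 averaged 4.05 ± 0.399 CPM under siRNA-1 and 3.67 ± 0.382 CPM with siRNA-2, against 3.75 ± 0.167 CPM with scramble. Neither PCNA nor CCNE2 passed the test with either siRNA. In all, 14 genes were called higher with both siRNAs: MCM2, MCM5, MCM6, MCM7, MCM10, GINS2, GINS3, GINS4, CHAF1A, CHAF1B, UHRF1, CLSPN, DTL and E2F2, where 3.71% of all genes tested were called higher with both. Of the 14, MCM2 alone was called with both once the in-between libraries were left out, and none against scramble library 1 alone. Set against each other, siRNA-1 and siRNA-2 differed in 2 genes, 1 in each direction, where 5.60% of all genes tested were higher and 4.53% lower with siRNA-1, so the count among the 49 is no more than the background. CCNE1 was lower with siRNA-1, at 11.0, 11.7 and 11.4 CPM with siRNA-1 against 16.7, 15.2 and 16.3 CPM with siRNA-2 (log2 fold change -0.50, SE 0.09, adjusted p = 0.000264). RFC5 was higher, at 14.8, 17.0 and 16.2 CPM with siRNA-1 against 12.9, 12.5 and 13.4 CPM with siRNA-2 (log2 fold change 0.30, SE 0.08, adjusted p = 0.0105). Mitosis and G2 genes included 5 of 32 that were higher with siRNA-1 than with siRNA-2 and 0 that were lower, such as TOP2A at 0.42. Replication genes outside the 49 also differed between the siRNAs. RFC1 (0.47), POLD2 (0.43) and RNASEH2B (0.43) were among those higher with siRNA-1, while RAD54L of homologous recombination was lower (-0.57).

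The calls with both siRNAs rested on which scramble libraries were used. Against scramble library 1 alone 1 gene rose with siRNA-1, MCM6 (0.37, adjusted p = 0.0338), and 4 rose with siRNA-2, which were MCM2, GINS3, E2F2 and CCNE1. With scramble library 2 alone 25 rose with siRNA-1, and 24 rose and 1 fell with siRNA-2. With library 3 alone 12 rose with each siRNA. The lone library is assumed in these fits to vary like the other groups. The share of all genes called is not set beside the counts of this paragraph. Their changes between settings therefore cannot be read as particular to the 49 genes. E2F2 with siRNA-1 was at 0.52, adjusted p = 0.301 against library 1, 1.10, adjusted p = 0.000755 against library 2 and 0.82, adjusted p = 0.00831 against library 3. MCM10 with siRNA-1 was at 0.00, 1.14 and 0.53 against libraries 1, 2 and 3, and RRM2 at -0.42, 1.30 and 0.22. The median over the 49 genes with siRNA-1 was 0.09, 0.35 and 0.18 against libraries 1, 2 and 3, and with siRNA-2 it was 0.12, 0.38 and 0.20. Without scramble library 2, 9 genes rose with siRNA-1 and 11 with siRNA-2, with 0 lower. Without siRNA-2 library 2, 13 rose with siRNA-2 and 0 fell. With the in-between library of every group left out, MCM2 and MCM6 rose with siRNA-1, and MCM2, CHAF1B, UHRF1, DTL, E2F2 and CCNE1 with siRNA-2.

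**Figure D5:**
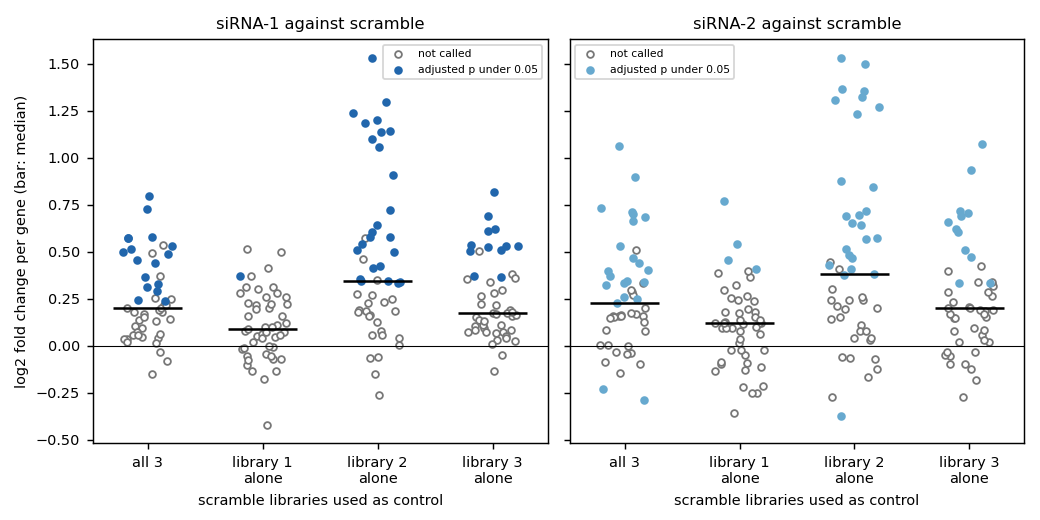
Log2 fold change of each of the 49 genes with siRNA-1 (left) and siRNA-2 (right) against all 3 scramble libraries and against each scramble library alone. Filled points passed an adjusted p under 0.05 and bars are medians. Against library 1 alone the medians are 0.09 and 0.12 with 1 and 4 genes called, and against library 2 alone they are 0.35 and 0.38.

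Scramble libraries also spread more than others in single genes, where the largest SD of log2 CPM was 0.854, against 0.318 at most in any other group, while the test shares 1 estimate of the spread over all 5 groups. The unfolded protein response moved along the same libraries. Its 22 genes had a mean log2(CPM + 0.1) of 6.66, 7.66 and 7.26 in scramble libraries 1 to 3, against 6.23, 6.29 and 6.36 with siRNA-1 and 6.22, 6.27 and 6.33 with siRNA-2, and 21 of them fell with siRNA-1 and 19 with siRNA-2. CDKN1A averaged 281 ± 16.5 CPM under siRNA-1 and 287 ± 28.3 CPM with siRNA-2, against 403 ± 47.2 CPM with scramble (log2 fold changes -0.52 and -0.49). Of 9 fibroblast markers 3 rose with siRNA-1, POSTN (0.97), PDGFRA (0.45) and COL1A1 (0.29), and 2 with siRNA-2, and 0 fell with either in edgeR's test. They summed to 217 to 239 CPM with siRNA-1, 209.6 to 222 CPM with siRNA-2 and 161 to 228 CPM with scramble, with DCN, THY1 and FAP near 0. Some cardiomyocyte and smooth muscle markers moved too, named here after their values were seen. NPPA fell with siRNA-1 and siRNA-2 (-0.62 and -0.60), ACTN2 rose (0.29 and 0.42), and TNNT2 and TNNI1 passed neither test. ACTA2 rose and RGS5 fell with siRNA-1 (0.58 and -0.49), and CNN1 rose with siRNA-2 (0.91). The part of all these features in the siRNA results was not tested. Among companion lists, 6 of 32 mitosis and G2 genes rose with siRNA-1 and 0 fell, while 0 rose and AURKA fell with siRNA-2 (-0.32). Of 40 other fork and origin genes 3 rose and 0 fell with siRNA-1, among them WDHD1 (0.42) and CDC7 (0.33), and 3 rose and 9 fell with siRNA-2, where POLE4 and POLD2 stood at -0.41 and -0.40. Of 26 nucleotide supply genes 2 fell with siRNA-1, and 4 rose and 6 fell with siRNA-2, with the p53-induced ribonucleotide reductase subunit RRM2B at -0.36 with siRNA-1 and -0.80 with siRNA-2.

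The effect of the ATRNL1 lentivirus was then set against the mean effect of both siRNAs in 1 model, as a test of their difference. All 49 genes had a lower effect with the lentivirus than with the siRNAs, and 0 a higher one, where 15.5% of all genes tested were lower and 16.5% higher. The median difference on the log2 scale was -1.51, against 0.01 over all genes tested. E2F2 differed most (difference -3.15, SE 0.18, adjusted p = 1.69e-12), followed by CDC45 (-2.59, SE 0.21), FAM111B (-2.58, SE 0.26), CHAF1B (-2.53, SE 0.17) and MCM10 (-2.47, SE 0.19). RFC5 and POLD1 differed least, at -0.49 and -0.56. Against scramble library 1 alone, or with the in-between library of every group left out, the call of POLD1 ended and 48 genes were lower. Of 32 mitosis and G2 genes 31 were lower, with a median of -1.05, and of 22 unfolded protein response genes 21 were higher, with a median of 1.29. The arms differ also in delivery and selection, and the control lentivirus stood far above scramble in these genes, so the difference cannot be told apart from the levels at which the arms began.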

How the data were processed

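The authors deposited 1 table of raw read counts per gene for 15 libraries, with GENCODE v29 identifiers. The submitters' processing notes name STAR 2.7.9a, DESeq2 1.30.1 and GRCh 38 without a role. Neither the counter nor the use of strand is given in the sources used here. Ribosomal RNA was depleted, per the labels' protocols, while the molecule field names polyA RNA, and the description of cell growth breaks off before its end. Of 59429 rows 649 carried no identifier, held 0.00157% to 0.00437% of the counts and were left out. Column names give the group of a library but not its labelled sample, so library numbers are names only.

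The 49 members, the companion lists and the markers were chosen with earlier results of these data known. Counts were fitted in R 4.3.3 with edgeR 4.0.16: filterByExpr, TMM scaling, 1 model of 5 group means over all 15 libraries, and quasi-likelihood tests with Benjamini-Hochberg adjustment over the 24659 genes kept, called at an adjusted p under 0.05. The common coefficient of variation between libraries was 8.24% and the median prior degrees of freedom 14.5. A standard error is the log2 fold change divided by the square root of its F statistic. CPM use TMM-scaled totals, which ran from 37078568 to 108663135 before scaling, and list levels add a pseudocount of 0.1 CPM. Members named with full values are the 5 called ones of largest change per comparison and fixed leaders of the roles. POLD1 and LIG1 were added outside that rule. Companion genes are the called ones of largest change, up to 3 a list. The fit was tested on simulated counts. Alternatives were RLE factors, library size only, no filter, DESeq2 1.42.0, limma 3.58.1 voom with library weights, only the groups compared, leaving out each library, and each scramble library as the sole control. Leaving out the in-between library of every group was added after the data were seen. Promoters came from RefSeq.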

Additional observations from a re-analysis of the deposited data

How the results depend on the processing

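No called direction of the genes recomputed turned round under the 25 settings tried. Of 1863 recomputed values of the genes named by rule with full values, over all comparisons, 56 lost their call, 30 gained one and 0 reversed. The losses were uneven: of the calls among all 49 genes, 16 of 17 with siRNA-1 and 18 of 22 with siRNA-2 ended against scramble library 1 alone, 6 and 11 against library 3 alone, and 15 and 16 without the in-between libraries. In the ATRNL1 lentivirus comparison the count of lower genes stayed between 48 and 49, and in the comparison of the controls 47 or 48 were higher, with 48 in limma voom. The siRNA counts moved, and they are given without the share of all genes called in the same setting. With siRNA-1 the number of higher genes was 27 in limma voom, 9 with only the groups compared, 1 with scramble library 1 as the sole control, 2 without the in-between libraries and 9 to 24 when 1 library was left out. With siRNA-2 it was 4 with scramble library 1 and 12 with library 3 as the sole control, 6 without the in-between libraries and 11 to 24 when 1 library was left out. The 2 lower genes with siRNA-2 became 0 with library size only, 1 without a filter, 0, 1 and 0 with scramble libraries 1, 2 and 3 as the sole control, 0 without the in-between libraries and 0 to 2 when 1 library was left out. Between siRNA-1 and siRNA-2 the 1 higher gene became 0 with library size only, 2 in DESeq2, 6 in limma voom, 5 with only the groups compared, 0 without the in-between libraries and 0 to 1 when 1 library was left out. The 1 lower gene became 2 with library size only, 2 without a filter, 2 in DESeq2, 2 in limma voom, 3 with only the groups compared and 1 to 2 when 1 library was left out. Leaving out libraries lowers the number of samples, and the cause of the other changes was not tested. Scaling by library size only moved the share of all calls that were higher to 70.1% for siRNA-2 against scramble, where TMM gave 53.2%, to 33.7% for siRNA-1 against siRNA-2, where TMM gave 55.3%, and to 36.6% for the control lentivirus against scramble, where TMM gave 47.7%. No paired analysis was possible because the columns carry no replicate numbers of the labels.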

Other observations

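Regulators upstream of S phase moved in several directions. The D-type cyclins, which start the phosphorylation of the retinoblastoma proteins, differed among themselves. Cyclin D2 (CCND2) averaged 1794 ± 152 CPM with the ATRNL1 lentivirus and 1637 ± 38.6 CPM with the control lentivirus (SD, n = 3 each), which did not pass edgeR's test (log2 fold change 0.13, SE 0.07, adjusted p = 0.145). Cyclin D3 (CCND3) averaged 6.52 ± 0.338 CPM with the ATRNL1 lentivirus and 9.41 ± 0.610 CPM with the control lentivirus (log2 fold change -0.53, SE 0.09, adjusted p = 3.31e-05). With the siRNAs it averaged 13.4 ± 0.653 CPM for siRNA-1 and 23.3 ± 2.49 CPM for siRNA-2, against 15.6 ± 0.708 CPM with scramble, and cyclin D1 (CCND1) averaged 275 ± 17.0 CPM for siRNA-1 and 163 ± 3.94 CPM for siRNA-2, against 237 ± 8.65 CPM with scramble. The siRNAs thus differed from each other in opposite directions for these cyclins, with siRNA-1 against siRNA-2 at -0.80, SE 0.09 for CCND3 and 0.76, SE 0.08 for CCND1 on the log2 scale (adjusted p = 5.85e-07 and 3.01e-07).

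CDKN2C, an inhibitor of CDK4 and CDK6, moved with the replication genes rather than against them. It averaged 9.63 ± 0.361 CPM with the ATRNL1 lentivirus and 27.3 ± 0.834 CPM with the control lentivirus (log2 fold change -1.50, SE 0.13, adjusted p = 1.56e-09). With scramble it averaged 1.63 ± 0.717 CPM. MYC, a growth-promoting transcription factor, averaged 1.58 ± 0.131 CPM with the ATRNL1 lentivirus and 0.425 ± 0.0779 CPM with the control lentivirus (log2 fold change 1.93, SE 0.27, adjusted p = 2.5e-06), so it rose while the replication genes fell, at a low level. MYBL2, the B-MYB factor of late S phase and G2, averaged 15.6 ± 0.772 CPM with the ATRNL1 lentivirus and 42.0 ± 2.49 CPM with the control lentivirus (log2 fold change -1.43, SE 0.16, adjusted p = 1.23e-07). SHMT2, the mitochondrial serine hydroxymethyltransferase, rose, with an average of 33.1 ± 3.66 CPM with the ATRNL1 lentivirus and 20.2 ± 1.25 CPM with the control lentivirus (log2 fold change 0.71, SE 0.12, adjusted p = 2.85e-05). CCND2, CCND3, CCND1, MYBL2 and SHMT2 were named here after their values were seen.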
